A study of Mus musculus with 8 samples.

Results

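The transcription factor NF-kB and the proteins that switch it on and off were followed in B-1a cells with and without PTIP. The genes comprised 36 names: NF-kB subunits, IkB proteins, kinases, adaptors and ubiquitin ligases, deubiquitinases with other inhibitors, and further targets. They were picked by gene symbol, and each was read from the probe set that carried its symbol alone. Of the 36, 33 matched such a probe set, out of 22180 genes tested. Nfkb1, Chuk and Traf3 were not analysed here. No measured member had more than 1 probe set. Affymetrix arrays were hybridised with total RNA of B-1a cells sorted from peritoneal lavage of mice aged 5 weeks; these cells form a B cell compartment of the body cavities that renews itself. The KO group carried PTIPflox/flox and 1 copy of a Cre allele active in B lineage cells, where Cre deletes Paxip1, the gene for PTIP. The WT group carried PTIP+/+ and likewise 1 copy of that Cre allele. There were 4 KO pools made from 29 mice and 4 WT pools made from 22 mice, with 1 array per pool, and the sources used here do not say how many mice each pool held.

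NF-kB dimers are held in the cytoplasm by IkB proteins. In the canonical branch, the B cell receptor, Toll-like receptors or TNF receptors activate a kinase complex of IKK-alpha, IKK-beta and NEMO, which marks IkB proteins for destruction and frees dimers of RelA, c-Rel and p50. In the noncanonical branch, receptors such as those for BAFF and CD40 ligand stabilise the kinase NIK, and the precursor p100, the product of Nfkb2, is processed to its short form, the partner of RelB. Many NF-kB targets encode inhibitors of the pathway itself, among them IkB-alpha and A20. B-1a cells are known to depend on B cell receptor signalling through BCL10 and MALT1 for their development.

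All values are log2 RMA values as deposited, relative to the other genes of an array, and arrays give no read depth, so that their number limits the precision. A difference is KO minus WT on the log2 scale. A gene is described as past the test, as rising or as falling where limma gave an adjusted p (Benjamini-Hochberg over all 22180 genes, two-sided) under 0.05. Errors of groups are SDs over 4 pools, and SE is the standard error of a difference. In these bulk samples a change in the make-up of a pool and a change of RNA per cell cannot be told apart. Array medians lay between 3.68 and 3.74. Paxip1, the targeted gene, averaged 4.38 ± 0.54 in KO and 7.05 ± 0.13 in WT. Whether its probes fall inside the deleted part is not stated. Of 7 B cell markers measured, 5 had negative differences and 1 fell: Cd22, an inhibitory receptor, averaged 9.54 in KO and 10.1 in WT (-0.59, adjusted p in limma = 0.0170). Of the 6 B cell markers that did not pass, Blk averaged 9.04 in KO and 9.28 in WT. Its groups lay apart (-0.24, adjusted p in limma = 0.218). Ms4a1 and Cd79b, chosen after their values were seen, averaged 11.1 and 11.9 in each group. Cd5, which defines B-1a cells, averaged 7.48 in KO and 7.44 in WT, and the B-1a transcription factor gene Bhlhe41 averaged 9.06 in KO and 9.08 in WT. Of 6 B-1a markers 5 had negative differences and 2 fell. Itgam averaged 5.59 in KO and 7.27 in WT (-1.68, adjusted p in limma = 0.000191). Zbtb32 averaged 7.81 in KO and 8.92 in WT (-1.11, adjusted p in limma = 0.00256). Spn differed by -0.52 with the groups apart and did not pass (adjusted p in limma = 0.1215). Mean values per pool of the 6 ran from 6.99 to 7.18 in KO and from 7.63 to 7.76 in WT. Across genes, Pearson's r between a KO and a WT array lay between 0.986 and 0.989.

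Markers of other cells differed between pools. The 13 T cell markers measured had a mean of 7.15, 6.93, 5.18 and 5.71 in KO pools 1 to 4, against 5.48, 5.53, 4.85 and 4.57 in WT pools 1 to 4. For 11 NK cell markers it was 5.64, 5.37, 4.41 and 4.78 in KO pools, against 4.30, 4.52, 3.99 and 3.61 in WT pools. KO pools 1 and 2 were therefore the highest of the 8 in both. Of the T cell markers 12 of 13 had positive differences, with Cd3e between 5.90 and 8.64 in KO and between 4.02 and 6.24 in WT. In limma 0 T cell markers passed the test, and 8 (61.5%) had an unadjusted p under 0.05, against 15.3% of all genes tested. All 11 NK cell markers had positive differences, and 2 rose, Klrd1 (1.83, adjusted p in limma = 0.0387) and Klrb1c (0.73, adjusted p in limma = 0.0361). Macrophage markers averaged between 4.73 and 5.02 in KO and between 4.67 and 5.51 in WT, and granulocyte and mast cell markers between 3.07 and 3.24 in KO and between 2.90 and 3.55 in WT. In both lists the highest of the 8 pools was WT pool 1 (5.51 and 3.55). Of 13 macrophage markers 1 fell, Cd68 (-0.56, adjusted p in limma = 0.0275). Of 5 plasma cell markers 1 rose, Jchain, which joins secreted IgM and IgA, at 5.51 ± 0.29 in KO and 4.02 ± 0.15 in WT (adjusted p in limma = 0.000197). The other plasma cell markers did not pass and went both ways. Xbp1 (-0.35) and Irf4 (-0.34) were lower in KO and Prdm1 (0.19) higher, each with the groups apart, and Sdc1 differed by 0.01. The part of NK cell, macrophage, granulocyte, mast cell and plasma cell markers in the results below was not tested. Results are given below without KO pools 1 and 2 and adjusted for the T cell marker mean, entered in the fit as a covariate, where these end a call.

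RefSeq promoter windows of 300 bases, from 250 before to 50 after an annotated start, were read on GRCm38.p6 for 29 of the 36 genes, and the kappaB consensus was searched for in them. The consensus used here has 10 bases: GG, 2 purines, 2 of any base, 2 pyrimidines and CC. It equals its own reverse complement, so 1 search covers both strands, and overlapping matches were counted as 1. Other forms of the kappaB site were not searched for. Of these 29 genes 16 (55.2%) had a match in at least 1 window, and 3400 of all 27025 genes with a window did (12.6%). By window, the counts were 21 of 41 for these genes (51.2%) and 3671 of 32851 for all genes (11.2%). No window was read for Nfkb1, Relb, Nfkbiz, Ikbkb, Malt1, Otud7b and Cd83. The first windows shown are those of the 2 genes with the largest rises. Nfkb2 has 3 windows, all with matches, and the one shown held 2, 39 and 11 bases before the start, in capitals, while the Gadd45b window held 0. A match is a description of the letters only.
Nfkb2 (chr19:46304487-46304786, + strand): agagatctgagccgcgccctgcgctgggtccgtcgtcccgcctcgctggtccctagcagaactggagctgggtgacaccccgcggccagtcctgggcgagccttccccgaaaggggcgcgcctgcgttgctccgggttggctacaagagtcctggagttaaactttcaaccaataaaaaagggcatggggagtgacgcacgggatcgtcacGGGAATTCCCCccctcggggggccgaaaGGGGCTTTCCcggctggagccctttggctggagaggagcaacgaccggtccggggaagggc
Gadd45b (chr10:80929841-80930140, + strand): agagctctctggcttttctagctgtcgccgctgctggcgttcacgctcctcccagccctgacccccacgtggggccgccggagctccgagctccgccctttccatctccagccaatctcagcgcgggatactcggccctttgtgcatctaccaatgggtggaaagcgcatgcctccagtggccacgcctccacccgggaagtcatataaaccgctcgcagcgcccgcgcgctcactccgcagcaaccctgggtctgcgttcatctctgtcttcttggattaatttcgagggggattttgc

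Shorter stretches of 30 bases around single matches are shown for the other genes past the test that had a match, Tank and Tnip2, and for Nfkbia, Tnfaip3, Tnip1 and Bcl3, which encode inhibitors or IkB proteins and had an unadjusted p under 0.05. Matches are in capitals.
Tank (chr2:61578537-61578566, + strand): atttctcagtGGAAGTCCCCagttcaacac
Tnip2 (chr5:34514200-34514229, - strand): tctgactccaGGAAAATTCCtcagacgcag
Nfkbia (chr12:55492657-55492686, - strand): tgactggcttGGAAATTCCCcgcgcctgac
Tnfaip3 (chr10:19015403-19015432, - strand): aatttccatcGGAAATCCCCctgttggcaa
Tnip1 (chr11:54962978-54963007, - strand): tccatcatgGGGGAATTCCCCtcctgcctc
Bcl3 (chr7:19822734-19822763, - strand): tcggcggcagGGGAAGTCCCgctgcccggc
In Tnip1 and in the first match of Nfkb2, overlapping matches merge into a longer run. Both genes that rose and genes that fell or did not pass the test carried matches. Among measured members with a window, matches were found in 2 of 3 that rose, in 1 of 1 that fell and in 11 of 23 that did not pass the test.

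Loss of PTIP went with changes of 6 members, 3 in each direction. Gadd45b, Nfkb2 and Tank rose, and Malt1, Tnip2 and Ikbkb fell. By RNA, the gene for a precursor subunit of the noncanonical branch (Nfkb2) was higher. The genes for the paracaspase (Malt1) and the catalytic kinase (Ikbkb) of the canonical branch were lower. The 6 made up 18.2% of the 33 measured, where 797 of all 22180 genes tested were past the test (3.59%). Rises covered 1.49% and falls 2.1% of all genes. All 33 measured members lay above the median gene, and 737 of the 11090 genes with a mean above that median passed (6.65%). The median difference was 0.12 over the 33 members and 0.02 over all genes tested. Positive differences were found in 21 members (63.6%), against 54.6% of all genes tested and 51.9% of those above the median gene. The 4 KO values lay apart from the 4 WT values in 9 members (27.3%), 5 of them higher and 4 lower in KO. Among all genes this was so for 2329 (10.5%), higher for 5.41% and lower for 5.09%. Among genes with a mean above the median gene it was so for 1917 (17.3%). At an adjusted p under 0.10, Tnip1 and Traf5 also passed, making 8 members, where 5.42% of all genes passed. The members were chosen with results of these data known, so these counts describe the list and are not a test of it.

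**Figure D1:**
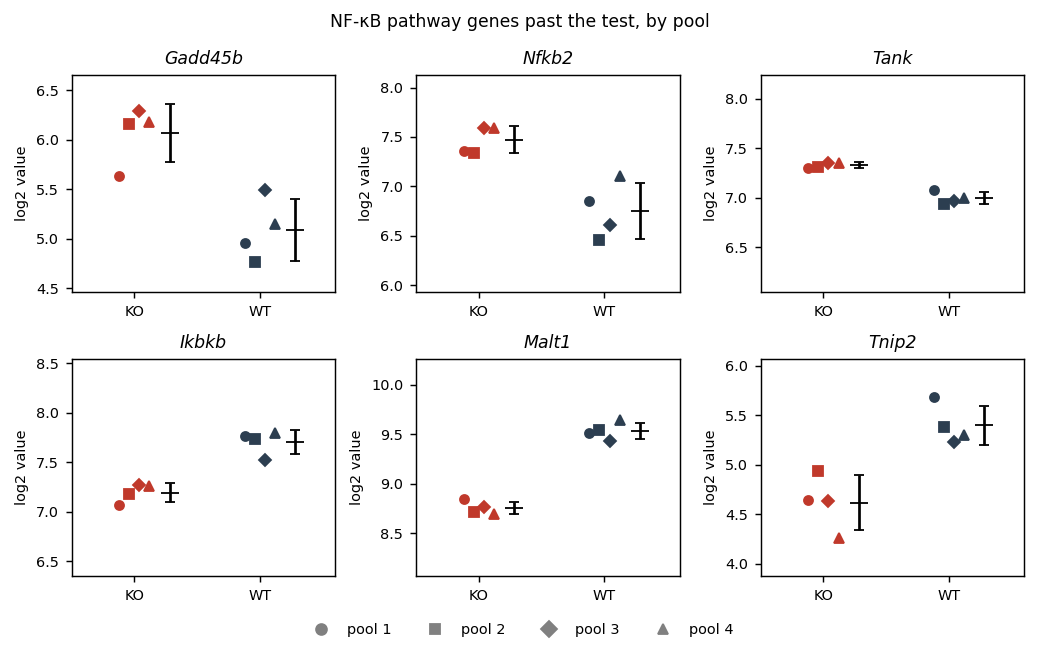
Log2 values of the 6 genes past the test in KO pools (red, left) and WT pools (dark, right), with the symbol giving the pool number and bars the mean ± SD (n = 4). Every panel spans the same range of log2 units, and in each the KO and WT points lie apart, with the smallest spread in Tank (SD 0.03 in KO, 0.06 in WT).

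Among the subunits, Nfkb2 rose and the other 3 measured did not pass the test. Nfkb2 had 7.36, 7.34, 7.59 and 7.59 in KO pools 1 to 4, against 6.85, 6.46, 6.61 and 7.11 in WT pools 1 to 4. The groups lay apart, and WT pools 2 and 3 were the lowest. The difference was 0.72 (SE 0.14), or 1.64-fold, with an adjusted p of 0.0150 in limma. KO pools 1 and 2, high in T cell markers, were the lower pair of the KO group. Adjusted for the T cell marker mean the difference was 0.92 and past the test. Without WT pool 3 it was 0.67 (adjusted p in limma = 0.0520), and without KO pools 1 and 2 it was 0.83 (adjusted p in limma = 0.0559), and in both the call was lost.

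Relb, the partner of processed p100, had 5.24, 5.72, 5.76 and 5.74 in KO pools, against 5.40, 5.44, 5.55 and 5.59 in WT pools. Pools 2 to 4 of KO lay above all WT pools, whereas KO pool 1 was the lowest of the 8. Its difference was 0.12 (95% interval -0.14 to 0.38), but 0.24 without KO pool 1 (adjusted p in limma = 0.224), 0.26 without KO pools 1 and 2 (adjusted p in limma = 0.332) and 0.33 adjusted for the T cell marker mean (adjusted p in limma = 0.336). Rela, the main activating subunit of the canonical branch, had 8.90, 8.79, 8.84 and 8.73 in KO and 8.56, 8.78, 8.72 and 8.72 in WT. Groups overlapped, and the difference was 0.12 (95% interval -0.06 to 0.30). Rel, the gene for c-Rel, which is prominent in mature B cells, had 9.83, 9.81, 9.64 and 9.67 in KO and 9.68, 9.49, 9.65 and 9.78 in WT. Its difference of 0.09 had a 95% interval from -0.11 to 0.29. Within an array, Relb minus Rela was -3.66, -3.07, -3.09 and -2.99 in KO pools 1 to 4, against -3.16, -3.34, -3.17 and -3.13 in WT pools 1 to 4. KO pool 1 was the lowest of the 8, and the other KO pools lay above all WT pools. The means were -3.20 ± 0.31 in KO and -3.20 ± 0.09 in WT, a difference of -0.0016.

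**Figure D2:**
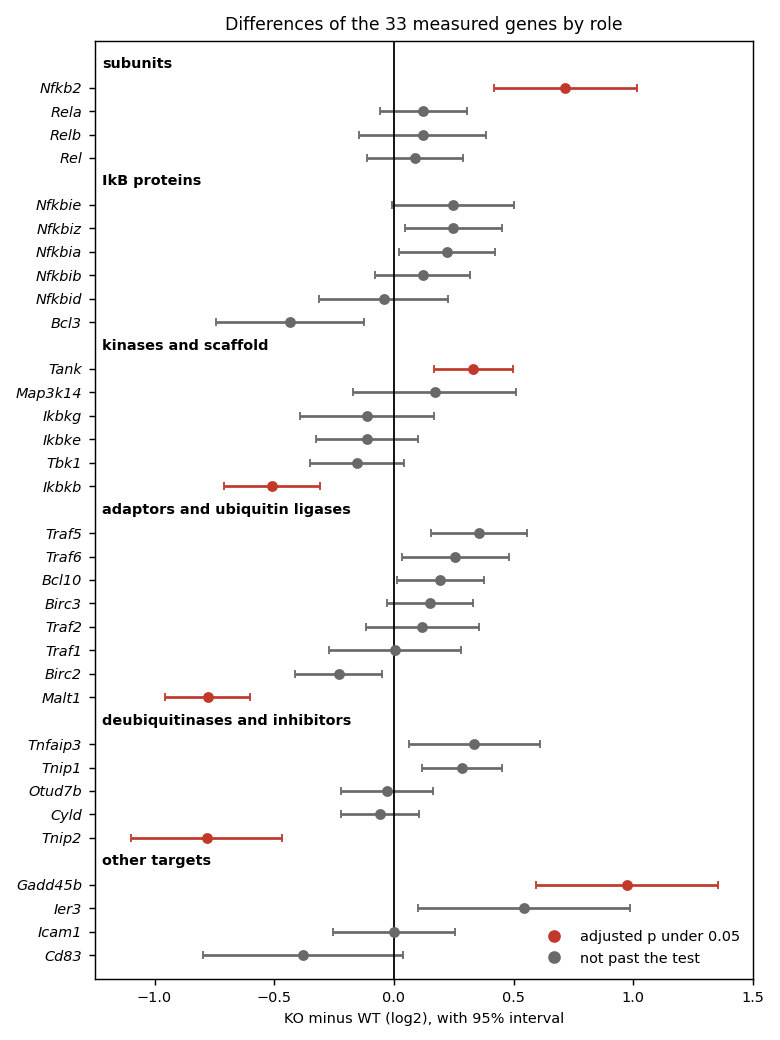
Difference KO minus WT on the log2 scale (horizontal axis) of the 33 measured members, grouped by role, with 95% intervals from limma. Red points mark adjusted p under 0.05. Nfkb2 stands at 0.72 among the subunits, with Rela, Relb and Rel at 0.12, 0.12 and 0.09, and Malt1 and Tnip2 stand at -0.78 each.

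None of the 6 IkB genes passed the test in limma, while 3 (50%) had an unadjusted p under 0.05. Of all genes tested 15.3% had such a p, and of those above the median gene 23.8%. Nfkbia, the gene for IkB-alpha and a fast feedback target, had 9.15, 9.05, 9.05 and 9.17 in KO pools, against 8.71, 8.88, 8.90 and 9.05 in WT pools. Groups met at WT pool 4. The difference was 0.22 (SE 0.09, adjusted p in limma = 0.266). Nfkbiz, an atypical nuclear IkB induced by Toll-like receptors, had 5.86, 5.83, 5.89 and 5.64 in KO and 5.44, 5.70, 5.61 and 5.48 in WT. Only KO pool 4 fell within the WT range, and the difference was 0.25 (SE 0.09, adjusted p in limma = 0.216).

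Bcl3 encodes a nuclear IkB that works with p50 and p52 homodimers. It had 6.63, 6.60, 6.63 and 6.46 in KO pools, against 6.58, 7.27, 7.00 and 7.22 in WT pools. WT pool 1, the highest pool in macrophage and in granulocyte and mast cell markers, lay among the KO pools. The other WT pools lay above the KO pools. The difference was -0.43 (SE 0.14, adjusted p in limma = 0.141), and without WT pool 1 it was -0.58 and past the test (adjusted p = 0.0144). Of the rest, Nfkbie and Nfkbib, genes for cytoplasmic IkB proteins, differed by 0.25 and 0.12. Nfkbid, a nuclear IkB needed for B-1 cells in mice, differed by -0.04 (95% interval -0.31 to 0.23).

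Of 6 kinases and scaffold genes, Tank rose and Ikbkb fell. Ikbkb encodes IKK-beta, the kinase that phosphorylates IkB proteins in the canonical branch. Its values were 7.07, 7.18, 7.27 and 7.26 in KO pools, against 7.76, 7.74, 7.52 and 7.79 in WT pools. Each KO pool lay below each WT pool. The difference was -0.51 (SE 0.09, adjusted p in limma = 0.0106), 1.42-fold lower in KO. KO pools 1 and 2, with the most T cell marker signal, had the lowest values, and the call was lost without them (-0.44, adjusted p in limma = 0.124) and adjusted for the T cell marker mean (-0.44, adjusted p in limma = 0.138). Ikbkg, which encodes the scaffold NEMO of the same complex, differed by -0.11 (95% interval -0.39 to 0.17), with KO pool 4 the lowest at 5.00.

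Tank encodes a scaffold that binds TRAF proteins and the kinases TBK1 and IKK-epsilon. It had 7.30, 7.31, 7.35 and 7.35 in KO pools, against 7.08, 6.94, 6.97 and 7.00 in WT pools. Spread within groups was small and the groups lay apart. The difference was 0.33 (SE 0.07, adjusted p in limma = 0.0351), or 1.26-fold. Size and sign were steady, between 0.31 and 0.36 over 16 alternatives, but the call was lost in 10 of them, among them the omission of any 1 pool other than WT pool 1 (adjusted p up to 0.0969). It was also lost without KO pools 1 and 2 (0.36, adjusted p in limma = 0.152) and adjusted for the T cell marker mean (0.35, adjusted p in limma = 0.162). The 2 kinases it binds, Tbk1 and Ikbke, differed by -0.15 (95% interval -0.35 to 0.04) and -0.11 (95% interval -0.33 to 0.10).

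Map3k14 encodes NIK, the kinase that starts the noncanonical branch. It had 5.67, 5.80, 6.45 and 5.83 in KO pools, against 5.60, 5.85, 5.72 and 5.89 in WT pools. KO pool 3 stood above the rest, and the other KO pools lay within the WT range. The difference was 0.17 (95% interval -0.17 to 0.51), and without KO pool 3 it was 0.00 (adjusted p in limma = 0.9998). Without KO pools 1 and 2 it was 0.37 (adjusted p in limma = 0.396), and adjusted for the T cell marker mean 0.47 (adjusted p in limma = 0.222).

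Malt1 had the smallest p of all members. The gene encodes a protease and scaffold that carries the signal of the B cell receptor, together with BCL10, to the kinase complex. It had 8.84, 8.72, 8.76 and 8.70 in KO pools, against 9.51, 9.54, 9.43 and 9.64 in WT pools. The gap between the groups was several times the spread within either. The difference was -0.78 (SE 0.08, adjusted p in limma = 0.000388), 1.72-fold lower in KO. It passed in all 16 alternatives, with differences between -0.81 and -0.74. Bcl10, the partner of MALT1, had 7.88, 7.77, 7.97 and 7.91 in KO, against 7.57, 7.69, 7.71 and 7.77 in WT. Groups met at KO pool 2 and WT pool 4, and the difference was 0.19 (SE 0.08, adjusted p in limma = 0.288).

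TRAF adaptors, which carry ubiquitin signals from receptors of the TNF and Toll-like families, gave no call, and 2 of 4 measured had an unadjusted p under 0.05. The shares with such a p were 15.3% of all genes tested and 23.8% of those above the median gene. Traf5 had 7.24, 7.09, 7.04 and 7.05 in KO pools, against 6.62, 6.92, 6.71 and 6.75 in WT pools. The groups lay apart, yet the difference of 0.36 (SE 0.09) missed the threshold (adjusted p in limma = 0.0605). It passed in 3 of 16 alternatives, with adjusted p up to 0.372. A further probe set names Traf5 together with another gene and was not used. Traf6, which also serves Toll-like and IL-1 receptors, had 5.85, 6.07, 5.94 and 5.74 in KO and 5.86, 5.58, 5.55 and 5.59 in WT. WT pool 1, the highest pool in macrophage and in granulocyte and mast cell markers, lay among the KO pools. The difference was 0.26 (SE 0.10, adjusted p in limma = 0.251). Traf1 and Traf2 differed by 0.00 and 0.12.

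The ubiquitin ligases cIAP1 and cIAP2, products of Birc2 and Birc3, help degrade NIK in resting cells and build ubiquitin chains at TNF receptors. Birc2 had 7.78, 7.82, 7.90 and 7.75 in KO pools, against 8.07, 7.96, 7.98 and 8.18 in WT pools. The groups lay apart by a narrow margin, and the difference was -0.23 (SE 0.08, adjusted p in limma = 0.193). Birc3 differed by 0.15 (95% interval -0.03 to 0.33), with values between 8.83 and 8.93 in KO and between 8.60 and 8.84 in WT.

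Among 5 deubiquitinases and inhibitors, Tnip2 fell. Tnip2 encodes ABIN-2, which binds A20 and the p105 precursor. Its values were 4.64, 4.94, 4.63 and 4.26 in KO pools, against 5.68, 5.38, 5.23 and 5.31 in WT pools. All KO pools lay below all WT pools, and KO pool 4 was the lowest. The difference was -0.78 (SE 0.14, adjusted p in limma = 0.0125), 1.72-fold lower in KO, and it passed in all 16 alternatives, with differences between -0.99 and -0.66. Tnip2 and the targeted gene Paxip1 are both on chromosome 5 in the RefSeq annotation of GRCm38.p6, and the part of linkage to the floxed allele in this fall was not tested.

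Tnip1 encodes the related A20-binding protein ABIN-1. It had 6.73, 6.86, 6.73 and 6.80 in KO pools, against 6.52, 6.55, 6.47 and 6.45 in WT pools. The groups lay apart, and the difference was 0.29 (SE 0.08, adjusted p in limma = 0.0706). It passed in 1 of 16 alternatives, when only genes above the median gene were tested (adjusted p = 0.0308). Tnfaip3, the gene for A20 itself, had 6.16, 6.01, 5.72 and 6.35 in KO and 5.83, 5.72, 5.62 and 5.72 in WT. KO pool 3 lay within the WT range. The difference was 0.34 (SE 0.12, adjusted p in limma = 0.212), and without KO pool 3 it was 0.45 and past the test (adjusted p = 0.0455). The deubiquitinases Cyld and Otud7b differed by -0.06 (95% interval -0.22 to 0.10) and -0.03 (95% interval -0.22 to 0.16).

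Of the 4 other targets, Gadd45b rose. Its product is a stress-induced protein that modulates MAP kinase signalling and DNA demethylation. Values were 5.64, 6.16, 6.29 and 6.18 in KO pools, against 4.95, 4.76, 5.49 and 5.15 in WT pools. The groups lay apart by a small margin, between KO pool 1 and WT pool 3. With a difference of 0.98 (SE 0.17, adjusted p in limma = 0.0104), or 1.97-fold, it was the largest change among the 33 members. It passed in all 16 alternatives, with differences between 0.87 and 1.30, the highest when adjusted for the T cell marker mean. Of 20 measured stress and immediate early genes, 0 passed the test in limma and 3 (15%) had an unadjusted p under 0.05, against 15.3% of all genes tested. Those 3 were Atf3 (-0.40), Junb (-0.23) and Klf6 (0.23).

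Ier3, an early response gene tied to survival, had 5.24, 4.43, 4.15 and 4.32 in KO pools, against 4.06, 4.15, 4.00 and 3.76 in WT pools. KO pool 1, highest in T cell markers, stood above the rest. Its difference of 0.54 (SE 0.20, adjusted p in limma = 0.213) was 0.10 when adjusted for the T cell marker mean. Cd83, a surface protein of activated B cells, had 4.88 to 5.85 in KO and 5.63 to 5.98 in WT, with its 2 lowest values in KO pools 1 and 2. The difference was -0.38 (95% interval -0.80 to 0.04), and 0.06 with the same adjustment. The part of T cells in the values of Ier3 and Cd83 was not tested. Icam1, an adhesion molecule, differed by 0.00 (95% interval -0.25 to 0.26).

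**Figure D3:**
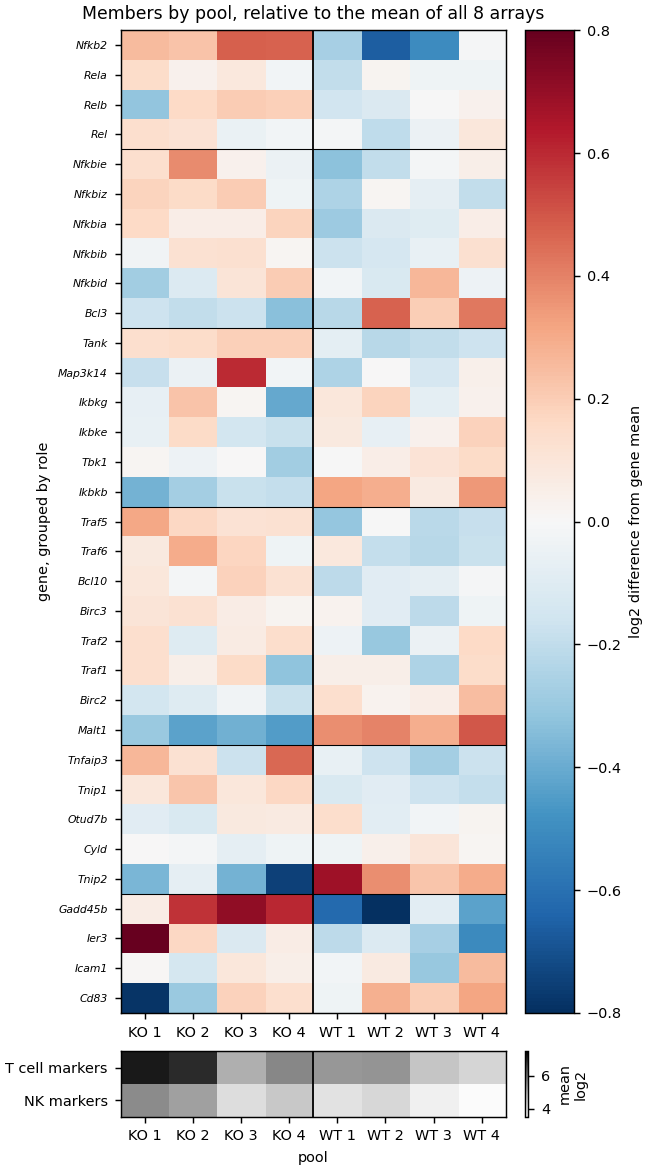
Log2 value of each of the 33 members on each array relative to that gene's mean over all 8 arrays (colour), KO pools left and WT pools right, with the mean log2 values of T cell and NK markers below in grey. Malt1, Ikbkb and Tnip2 are blue in every KO pool, while Ier3 is reddest in KO pool 1 and Cd83 bluest there, the pool with the highest T cell marker mean (7.15). The part of T cells in these values was not tested.

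Set side by side, the branches gave different calls and similar medians. In the canonical branch 10 of 11 genes were measured, and 2 fell (Malt1 and Ikbkb), 0 rose and 7 had positive differences. In the noncanonical branch 6 of 8 were measured, and 1 rose (Nfkb2), 0 fell and 5 had positive differences. Shares past the test were 20% (canonical) and 16.7% (noncanonical), against 3.59% of all genes tested and 6.65% of those above the median gene. Shares with positive differences were 70% and 83.3% in this order, against 54.6% of all genes tested and 51.9% of those above the median gene. The medians were 0.12 in the canonical and 0.14 in the noncanonical branch, against 0.02 over all genes tested. Mean values per pool of the canonical genes ran from 7.66 to 7.80 in KO and from 7.71 to 7.85 in WT. Those of the noncanonical genes ran from 6.76 to 7.01 in KO and from 6.59 to 6.86 in WT. Both ranges overlap, and the difference between branches was not tested.

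Signalling genes upstream of the branches showed 2 falls and 0 rises among 21 measured of 24 (9.52%), where 3.59% of all genes tested and 6.65% of those above the median gene passed. Both encode IRAK family proteins of the Toll-like and IL-1 receptor pathway. Irak2 had 6.67, 6.81, 6.63 and 6.70 in KO pools, against 7.04, 7.13, 7.24 and 7.31 in WT pools, and Irak1 averaged 6.80 ± 0.09 in KO and 7.21 ± 0.09 in WT. The adjusted p in limma was 0.0123 for Irak2 (-0.48) and 0.0236 for Irak1 (-0.41). The call of Irak2 was lost in 2 of 16 alternatives, without KO pools 1 and 2 (-0.51, adjusted p in limma = 0.0698) and adjusted for the T cell marker mean (-0.47, adjusted p in limma = 0.121). That of Irak1 was lost in 9, among them the same pair (-0.42 in both, adjusted p in limma = 0.143 and 0.148). The receptor with the smallest p was Tnfrsf13b (TACI, a receptor for BAFF and APRIL), at 5.87 ± 0.17 in KO and 6.29 ± 0.13 in WT (adjusted p in limma = 0.0584). The median of the 21 was -0.04.

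Of 37 further reported targets measured of 38, 2 rose and 1 fell, or 8.11%, against 3.59% of all genes tested and 6.65% of those above the median gene. The median was -0.03. Sod2, a mitochondrial superoxide dismutase, had 7.59, 7.57, 7.64 and 7.66 in KO pools, against 7.11, 7.16, 7.08 and 7.20 in WT pools. The groups lay well apart, and the difference of 0.48 (SE 0.07, adjusted p in limma = 0.00504) passed in all 16 alternatives. Cd69, an early activation marker, averaged 7.99 ± 0.15 in KO and 6.39 ± 0.32 in WT (adjusted p in limma = 0.000192) and passed in all 16 as well. The chemokine gene Ccl4 fell, at 3.27 ± 0.04 in KO and 3.71 ± 0.20 in WT (adjusted p in limma = 0.0417). All KO pools lay below the array medians (3.68 to 3.74), while WT pools 1 and 3 lay above them, at 3.76 and 3.95. The call of Ccl4 was lost in 10 of 15 alternatives, among them without KO pools 1 and 2 (-0.46, adjusted p in limma = 0.184) and adjusted for the T cell marker mean (-0.42, adjusted p in limma = 0.229). The next smallest p belonged to the chemokine gene Ccl5, which is also on the NK cell list. It had 11.2, 11.0, 8.82 and 10.1 in KO pools, against 8.97, 9.17, 7.14 and 6.81 in WT pools (2.24, adjusted p in limma = 0.0760). KO pools 1 and 2 were the highest, and the groups overlapped.

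**Figure D4:**
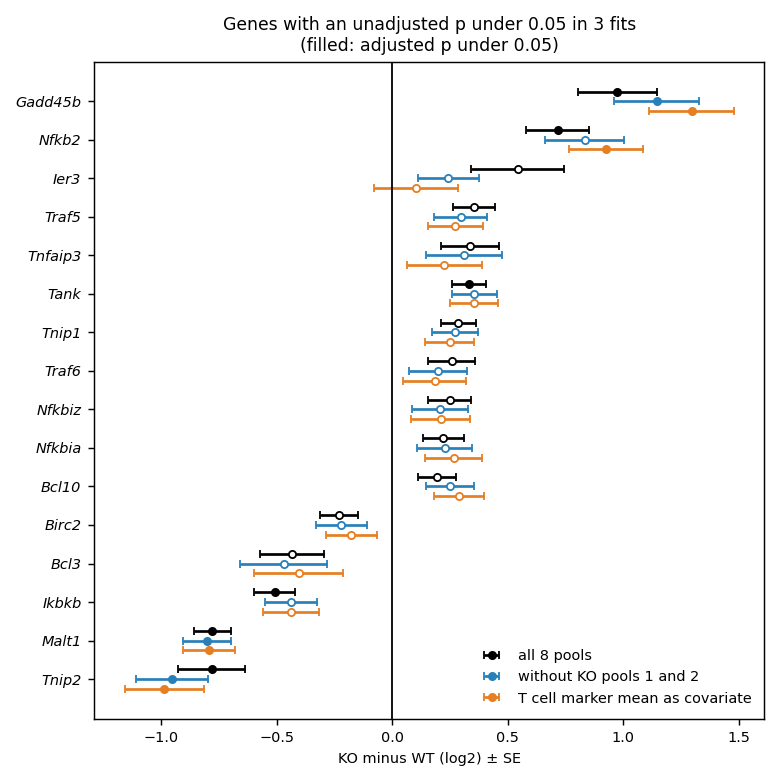
Difference KO minus WT ± SE (log2, horizontal axis) of the 16 members with an unadjusted p under 0.05, with all 8 pools (black), without KO pools 1 and 2 (blue) and adjusted for the T cell marker mean (orange). Filled points have an adjusted p under 0.05. The 16 are 48.5% of the 33 measured, against 15.3% of all genes tested and 23.8% of those above the median gene. Gadd45b, Malt1 and Tnip2 are filled in all, and Ier3 stands at 0.54, 0.25 and 0.10 in this order.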

How the data were processed

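The authors deposited log2 values of 41345 probe sets on 8 arrays, made with RMA and R 3.2.2 per the submitters' processing notes. RMA corrects background, equalises the arrays' distributions and summarises probes, so differences in total RNA are lost and folds of dim genes are understated. The sources used here do not give the build or the probe set annotation. Probe sets with 1 symbol in the platform annotation (23521) were kept, symbols were updated through gene ID (23328 matched RefSeq GRCm38.p6), and the probe set with the highest mean over all arrays stood for a gene. KO and WT were compared with limma 3.58.1 in R 4.3.3 (lmFit, eBayes), adjusted over 22180 genes. The fit was also run on simulated data with noise drawn separately for each gene. Shifts shared by many genes of a pool, such as those of T cell markers, were not covered by it. Values in every pool are given for members past the test or with an unadjusted p under 0.05, the core subunits and Map3k14, and other members by differences or ranges. The rule for other lists names genes past the test and otherwise up to 3 with the smallest p. The members and lists were chosen with earlier results of these data known. The labels call the pools biological replicates, and p-values measure the spread between pools. Alternatives changed probe set choice, filter, scaling, prior, weights, threshold, replicate block, T cell covariate and pools used. The changes of probe set choice, filter, prior and replicate block could not alter a member's difference, only its error and adjusted p. Promoter sequences are from RefSeq, GRCm38.p6.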

Additional observations from a re-analysis of the deposited data

Results flagged for a closer look

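In 66 groups of 4 pools (33 members, each in KO and in WT), the gap of the highest or lowest pool to its neighbour was set against the group's range. Chance gives such a gap in about 1 of 20 groups, and 2 groups (3.03%) had one above Dixon's 95% critical value. Relb in KO pool 1 stood at 5.24, while the other KO pools lay between 5.72 and 5.76 (gap over range 0.921). Traf6 in WT pool 1 stood at 5.86, while the other WT pools lay between 5.55 and 5.59 (gap over range 0.853).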

How the results depend on the processing

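Over all genes, 797 were past the test, against 320 without KO pools 1 and 2, 294 adjusted for the T cell marker mean, 1202 at an adjusted p under 0.10, and 479 to 758 without 1 pool. Members that rose numbered 3, against 1 without KO pools 1 and 2 (Gadd45b), 5 among genes above the median gene (with Tnip1 and Traf5), 5 at an adjusted p under 0.10, and 1 to 3 without 1 pool. Members that fell numbered 3 in the full comparison and between 2 and 4 in the alternatives. Upstream and target genes past the test numbered 5, against 9 with an intensity trend and robust prior, 2 without KO pools 1 and 2, 2 with the T cell covariate, 9 at an adjusted p under 0.10, and 3 to 5 without 1 pool. Changes of sign were seen in 6 members, all of which passed in 0 of 16 alternatives. Without KO pools 1 and 2 the differences were 0.130 for Nfkbid, -0.083 for Traf1 and 0.061 for Otud7b. With the T cell covariate they were 0.175 for Nfkbid, -0.058 for Traf1, 0.064 for Otud7b and 0.056 for Cd83, and with array weights -0.0076 for Icam1. Without 1 pool they ran from -0.117 to 0.043 for Nfkbid, -0.207 to 0.0065 for Ikbkg, -0.077 to 0.113 for Traf1, -0.063 to 0.012 for Otud7b and -0.099 to 0.086 for Icam1. The cause of these changes was not tested. With the replicate number as a block, 666 genes and 5 members passed, Tank not among them (adjusted p in limma = 0.0936). The labels link same-numbered pools by nothing but the number. Their deviations correlated at 0.107, 0.045, 0.045 and 0.036. Other pairs of a KO and a WT pool ran from -0.117 (KO pool 3, WT pool 1) to 0.104 (KO pool 3, WT pool 4). Whether same-numbered pools were handled together was not tested.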
